A study of Danio rerio with 6 samples.

Results

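Epidermal keratin genes were followed in RNA-seq of whole zebrafish embryos. Their members are *krt4*, *krt5*, *krt8*, *krt18*, *krt15*, *krt17*, *krt91*, *krt92*, *cyt1* and *cyt1l*, and an entry of the deposited count table belonged to the group when its name equalled one of these 10 symbols. The table lists 13466 genes and holds 9 of the 10 symbols. No entry analysed here is named *krt92*, but RefSeq gives the table's entry *zgc:109868* as a synonym of *krt92*, and that entry is described with the other keratin genes. Libraries came from 3 samples of wildtype embryos and 3 samples of embryos homozygous for the *hoxb1b* um197 allele, all collected at 18hpf after removal of chorion and yolk. RNA was extracted from pools of embryos, and the sources used here give neither the wildtype strain nor whether each library had its own pool. The p-values therefore measure the spread between these libraries, which may be technical. Every cell of the mutants carries the allele, so direct and indirect effects of losing this Hox transcription factor, known for patterning the hindbrain, cannot be told apart. Nor do the sources say whether the wildtype embryos were siblings of the mutants. Differences in parents, clutch or exact stage therefore cannot be told apart from effects of the allele.

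Keratins form the intermediate filaments of epithelial cells. Each filament is built from heterodimers of an acidic type I and a basic type II keratin, so epithelia express members of both types. At the somite stages the zebrafish skin is a bilayer. The outer periderm, which descends from the enveloping layer, covers a basal layer of keratinocytes on a basement membrane. Of the members listed, *krt4*, *krt5* and *krt8* are type II and the other 6, *krt18*, *krt15*, *krt17*, *krt91*, *cyt1* and *cyt1l*, are type I. *cyt1* is named for the type I cytokeratin of the enveloping layer, and the promoter of *krt4* is in common use to drive transgenes in fish skin. In mammals, keratins 8 and 18 are partners in simple epithelia, keratins 5 and 15 belong to basal keratinocytes, and keratin 17 is induced in injured skin.

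Changes between genotypes are given as the log2 ratio of mutant over wildtype ± its standard error. Total estimated counts lay between 19139322 and 29146812 per library, and *hoxb1b* transcripts themselves were higher, not lower, in the mutants, so their count does not check the labels by loss (0.29 ± 0.03 in log2 units, edgeR adjusted p = 8.71e-09). Every listed epidermal, muscle, neural, blood, notochord, hatching gland and yolk or liver gene in the table was detected in all 6 libraries. Of the 12471 genes tested, only 37 had no counts in some library, so such detection does not check the labelled tissue, whole embryo. The summed level of each of these marker lists was separate between the genotypes. In the mutants it was lower for muscle, blood, notochord and hatching gland genes and higher for epidermal, neural and yolk or liver genes. The summed level of 10 muscle genes was 14398 to 14575 CPM (counts scaled to a common normalized library size) in wildtype and 6143 to 6234 CPM in mutant libraries, and that of 6 blood genes was 1747 to 1778 CPM and 519 to 533 CPM. Of the muscle genes 8 were lower and 2 higher at an adjusted p under 0.05, and of the blood genes 4 were lower and 1 higher. A sum did not always go the way of most genes in its list. Of the neural genes, whose sum was higher, 3 were lower and 1 higher. Of the notochord genes, whose sum was lower, 4 were higher and 3 lower. Hatching gland genes gave 5 lower and 2 higher, and yolk or liver genes 6 higher and 2 lower. For comparison, 66.2% of all genes tested passed an adjusted p under 0.05, 32.6% higher and 33.6% lower. The part of such shifts in the keratin values was not tested. In whole embryos, fewer cells of a type and less RNA per cell cannot be told apart.

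The listed members present in the table took up a slightly smaller part of the counts in the mutants. This share leaves out *zgc:109868* (*krt92* in RefSeq) and the other keratin genes, so it does not cover all keratin transcripts. The 9 members held 4.13%, 4.15% and 4.15% of all counts in wildtype replicates 1 to 3 and 4.05%, 4.09% and 4.01% in mutant replicates 1 to 3. Ranked by read count, *krt4* stood at 2 and *cyt1* at 4 of all 13466 genes in every library. These are ranks of reads. No transcript lengths were at hand, so levels of different keratins are not compared. Normalized for library composition, the members summed to 42120 ± 350 CPM in wildtype and 39878 ± 422 CPM in mutant libraries (SD, n = 3 each), a mutant level 0.947 times that of wildtype, with no overlap between the genotypes. The summed type II members were nearly level, at 23897 ± 336 and 23763 ± 179 CPM, and their libraries overlapped. The summed type I members went from 18223 ± 44.4 to 16116 ± 244 CPM (SD, n = 3 each), and their libraries did not overlap. Neither sum by type includes *zgc:109868*, which rose from 1284 ± 23.6 to 1657 ± 23.8 CPM (SD, n = 3 each). The summed level of the other keratin genes that were tested, *zgc:109868* among them, went the other way. It was 2019 to 2077 CPM in wildtype and 2583 to 2634 CPM in mutant libraries. Most of these genes did not follow their sum, since 6 were lower and 3 higher at an adjusted p under 0.05. Members and other keratins together summed to 43788 to 44499 CPM in wildtype and 42013 to 42903 CPM in mutant libraries. These sums are given as descriptions, without a test.

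Behind the small change of the sum, single keratins moved in both directions. Of the 9 members, all of which passed the filter for low expression, 5 were lower and 3 higher in the mutants at an adjusted p under 0.05 (edgeR's quasi-likelihood test over 12471 genes), and *krt8* did not pass. Among all genes tested, 66.2% passed this limit, 32.6% higher and 33.6% lower. In 8 of the 9 members the libraries of the genotypes did not overlap, as was so for 68.1% of all genes tested. With the study's 2-fold criterion added, *krt15* and *krt91* were called, both lower, against 8.36% of all genes called and 6.66% called as lower. The members were not tested against other genes. The median log2 fold change was -0.15 over the members and -0.0034 over all genes tested.

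**Figure D1:**
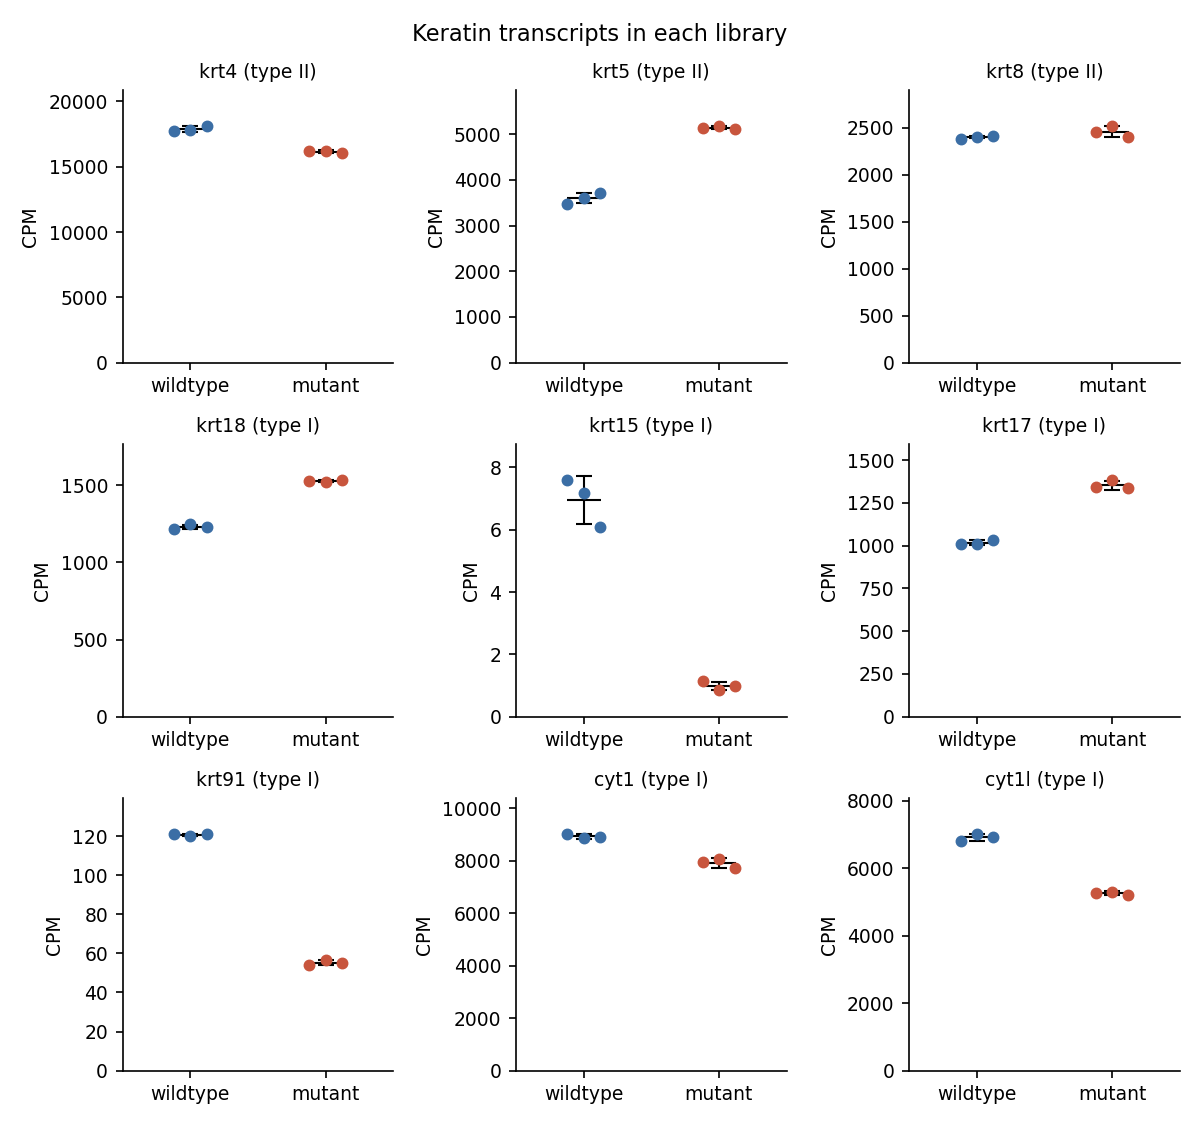
Level of each keratin gene in CPM (vertical axes, each from 0) in the 3 wildtype libraries (blue) and the 3 *hoxb1b* mutant libraries (red). Black lines give mean ± SD. The genotypes are separate for each gene except *krt8*, and *krt15* and *krt91* are the ones that fell more than 2-fold.

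Among the members, the deepest fall was in *krt15*, a type I keratin. Its level was 7.60, 7.19 and 6.10 CPM in wildtype replicates 1 to 3 and 1.13, 0.862 and 0.979 CPM in mutant replicates 1 to 3. Every mutant library lay below every wildtype library. Expression went from 6.96 ± 0.772 to 0.991 ± 0.136 CPM (SD, n = 3 each), a change of -2.83 ± 0.15 in log2 units (edgeR adjusted p = 8.66e-16), or 7.09-fold lower. Read support was thin, with at most 178 counts in a wildtype library and 20 to 29 counts in the mutants. *krt15* supplied 0.0165% of the keratin counts in wildtype libraries on average, so its fall hardly touches the sum.

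*krt91*, a type I keratin of fish, was the other called member. It stood at 121, 120.2 and 121 CPM in the wildtype libraries and at 53.8, 56.7 and 55.2 CPM in the mutant libraries. The genotypes were far apart relative to the spread within each. The change was -1.13 ± 0.03 in log2 units (edgeR adjusted p = 7.25e-23), a 2.18-fold fall resting on 1045 counts or more in every library. With each library left out in turn it lay between -1.14 and -1.11. When the counts of *krt91* were added to those of *zgc:109868* (*krt92* in RefSeq), which has far more reads, the summed entry rose by 0.28 on the log2 scale (edgeR adjusted p = 8.12e-13). Such a sum follows the entry with more reads and does not test the fall of *krt91* itself. The counts of *krt91* are fractional in all 6 libraries, and how reads shared between keratin entries were divided was not tested.

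The enveloping layer keratins *cyt1* and *cyt1l* were also lower, but by less than 2-fold. *cyt1* had 9022, 8871 and 8897 CPM in wildtype and 7953, 8067 and 7727 CPM in mutant libraries, a change of -0.17 ± 0.02 in log2 units (edgeR adjusted p = 1.69e-08). *cyt1l* had 6806, 7014 and 6932 CPM in wildtype and 5280, 5305 and 5202 CPM in mutant libraries, a change of -0.39 ± 0.02 in log2 units (edgeR adjusted p = 1.84e-16). All mutant libraries lay below all wildtype libraries for both genes. These genes are neighbours on chromosome 19 and their counts are fractional in all 6 libraries, which shows that reads were shared out between entries, so each single value is uncertain. Summed to 1 entry they fell from 15847 ± 32.5 to 13178 ± 227 CPM (SD, n = 3 each), and the log2 fold change of the sum was -0.27 (edgeR adjusted p = 1.21e-12).

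*krt4*, the member with the most reads, fell slightly. It gave 17719, 17833 and 18122 CPM in wildtype and 16199, 16235 and 16060 CPM in mutant libraries. The groups did not overlap, and the level in the mutants was 9.65% lower (-0.15 ± 0.02 in log2 units, edgeR adjusted p = 1.46e-07). Over all members, fractional counts occurred in all 6 libraries for 7 of the 9, in 5 libraries for *krt18* and in 1 library for *krt15*.

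The members that rose were *krt5*, *krt17* and *krt18*. *krt5*, a type II keratin, had 3481, 3614 and 3715 CPM in wildtype and 5125, 5179 and 5112 CPM in mutant libraries. This was the largest rise among the members, 1.43-fold, with a change of 0.51 ± 0.02 in log2 units (edgeR adjusted p = 3.18e-18), and the genotypes were separate. *krt17*, a type I keratin, had 1009, 1012 and 1033 CPM in wildtype and 1344, 1384 and 1334 CPM in mutant libraries. Again all mutant libraries were above all wildtype libraries, with a change of 0.41 ± 0.02 in log2 units (edgeR adjusted p = 2.55e-16). *krt18* had 1217, 1246 and 1228 CPM in wildtype and 1529, 1521 and 1534 CPM in mutant libraries, a rise of 24.2% (0.31 ± 0.02 in log2 units, edgeR adjusted p = 4.62e-14). RefSeq names this entry *krt18a.1*, and the adjoining *krt18a.2* is not listed in the table. Whether reads of *krt18a.2* fall on the *krt18* entry was not tested.

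*krt8*, a type II keratin, did not pass in the quasi-likelihood test. Its level was 2387, 2403 and 2417 CPM in wildtype and 2451, 2520 and 2405 CPM in mutant libraries, and mutant replicate 3 lay within the wildtype range. The change was 0.03 ± 0.02 in log2 units (edgeR adjusted p = 0.156). It kept its sign under every scaling tried, and with scaling by total counts it was 0.08 and passed the limit (edgeR adjusted p = 0.000989). Whether *krt8* rose slightly thus depends on the scaling.

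**Figure D2:**
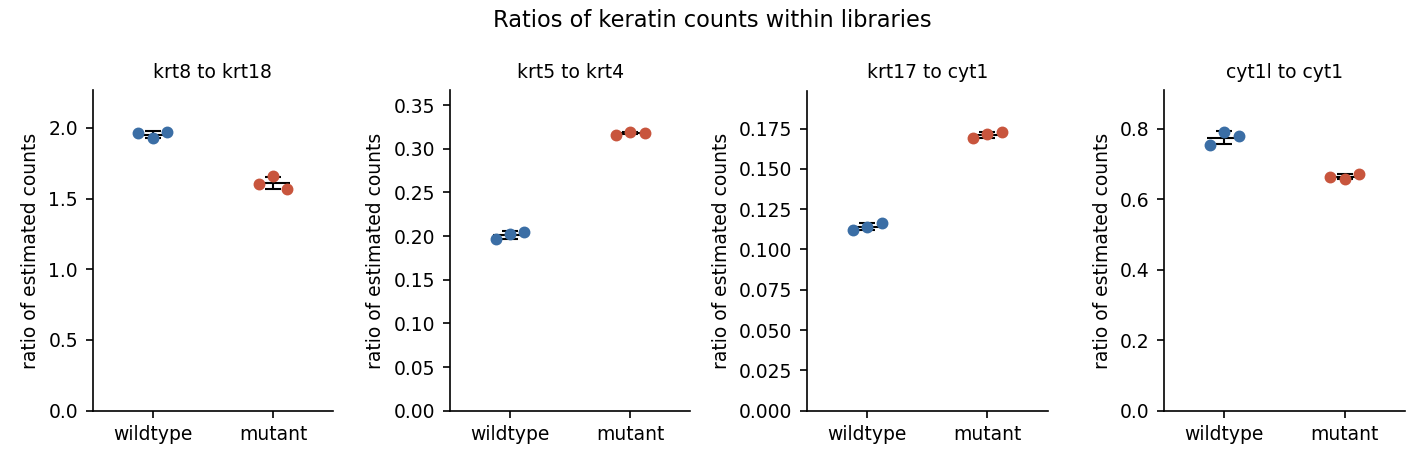
Ratio of the estimated counts of a pair of keratin genes within each library (vertical axes, each from 0), for 3 wildtype (blue) and 3 mutant (red) libraries, with mean ± SD in black. Mutant libraries lie below wildtype libraries for *krt8* to *krt18* and *cyt1l* to *cyt1*, and above them for *krt5* to *krt4* and *krt17* to *cyt1*.

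Ratios of keratin genes within a library need no scaling between libraries. They still depend on how shared reads were divided between entries, which was not tested. The ratio of *krt8* to *krt18* counts, partners in the simple epithelia of mammals, was 1.96, 1.93 and 1.97 in wildtype and 1.60, 1.66 and 1.57 in mutant libraries. All mutant values were lower. Within the type II members, the ratio of *krt5* to *krt4* went from 0.201 ± 0.00441 to 0.318 ± 0.00136 (SD, n = 3 each), 1.58 times as high in the mutants. The ratio of *krt5* to *krt8* likewise was between 1.46 and 1.54 in wildtype and between 2.05 and 2.13 in mutant libraries. Within the type I members, *krt17* to *cyt1* rose from 0.114 ± 0.00217 to 0.171 ± 0.0019 (SD, n = 3 each) and *cyt1l* to *cyt1* fell from 0.775 ± 0.0186 to 0.665 ± 0.00791 (SD, n = 3 each). In each of these 5 ratios the genotypes did not overlap. The ratios were chosen after the values of the genes had been seen and are given as descriptions. An exact permutation test gave p = 0.1 for each of them. With 3 libraries per genotype this is the smallest value it can give, so it could not have passed 0.05.

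**Figure D3:**
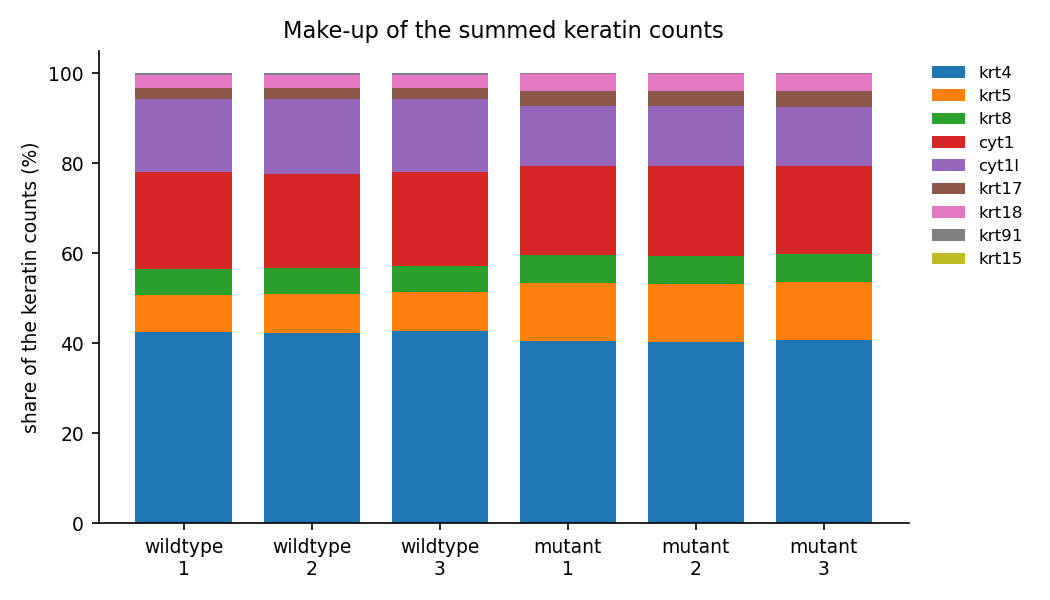
Share of the summed keratin counts (vertical axis, percent) that each of the 9 genes supplied in each library. The *krt5* band is wider in the 3 mutant libraries, and the *cyt1l* and *krt4* bands are narrower.

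The make-up of the keratin counts followed the single genes. *krt4* supplied 42.3% to 42.7% of them in wildtype and 40.3% to 40.7% in mutant libraries. The share of *krt5* was 8.33% to 8.75% in wildtype and 12.8% to 13.0% in mutant libraries. *cyt1l* went the other way, from 16.3% to 16.7% in wildtype down to 13.2% in all 3 mutant libraries. *krt17* made up 2.42% ± 0.015 in wildtype and 3.39% ± 0.0372 in mutant libraries (SD, n = 3 each). Shares of a sum are tied to each other, so the gain of *krt5* lowers the other shares by itself. Counted over the types, the ratio of type I to type II counts was 0.763 ± 0.0103 in wildtype and 0.678 ± 0.0052 in mutant libraries (SD, n = 3 each). *zgc:109868* (*krt92* in RefSeq), which rose, is left out of this ratio.

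Other keratin genes in the table showed the same mixture of directions. The symbols of the table and RefSeq give 11 of them, of which 9 passed the filter. Of these 9, 6 were lower and 3 higher at an adjusted p under 0.05, and 4 were called with the 2-fold criterion. Among all genes tested, 66.2% passed and 8.36% were called. *krtt1c19e* (*krt1-19e* in RefSeq), a marker of basal keratinocytes in zebrafish, fell most. It had 92.5, 90.9 and 96.4 CPM in wildtype and 16.8, 17.5 and 16.9 CPM in mutant libraries, a change of -2.45 ± 0.04 in log2 units (edgeR adjusted p = 4.01e-28). *zgc:77517* (*krt18b* in RefSeq) fell from 47.0 ± 0.373 to 20.6 ± 0.672 CPM (SD, n = 3 each), and *krt1-c5*, with 14 to 47 counts per library, fell by 1.26 on the log2 scale (edgeR adjusted p = 1.72e-05). The called gene that rose was *zgc:110712* (*krt99* in RefSeq), at 183, 186 and 178 CPM in wildtype and 399, 390 and 393 CPM in mutant libraries. Its change was 1.11 ± 0.02 in log2 units (edgeR adjusted p = 1.28e-25).

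Among the other keratins that were not called, the tenth symbol of the group appears under its older name. *zgc:109868* (*krt92*) had 1264, 1310 and 1279 CPM in wildtype and 1662, 1677 and 1631 CPM in mutant libraries, a change of 0.37 ± 0.02 in log2 units (edgeR adjusted p = 3.03e-15). With it, 4 of the 10 symbols would count as higher and 5 as lower. *krt97* rose by 0.42 (adjusted p = 4.62e-16) and *si:ch211-243g18.2*, which carries the synonym *krtt1c10*, fell by 0.47 (adjusted p = 4.78e-12) on the log2 scale in edgeR. *krt94* fell by 0.20 (edgeR adjusted p = 0.022), but it missed the limit with DESeq2 (adjusted p = 0.13), and also with total count scaling or without wildtype replicate 3, mutant replicate 2 or mutant replicate 3. *krt96*, named after its value was seen, fell by 0.86 (edgeR adjusted p = 1.33e-08). *krt93* and *zgc:171226* (*krt98*), also named after their values were seen, had at most 6 counts in any library and were not tested.

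**Figure D4:**
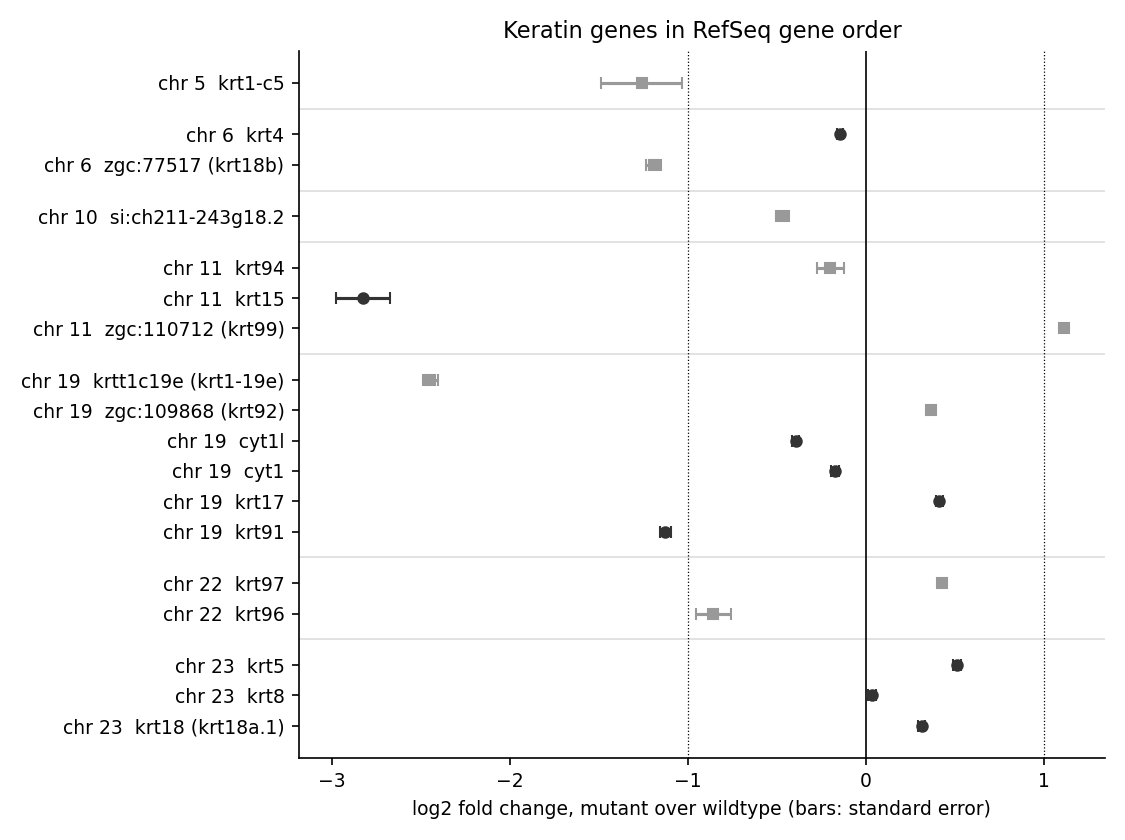
Log2 fold change of mutant over wildtype with its standard error (horizontal axis) for the 9 keratin members (black circles) and 9 other keratin genes (grey squares), ordered by chromosome and by gene order in RefSeq. Dotted lines mark a 2-fold change. Neighbouring genes on chromosomes 11, 19 and 22 lie on opposite sides of 0.

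Some keratins that lie next to each other on chromosomes 11, 19 and 22 changed in opposite directions. On chromosomes 6 and 23 the changes of the tested keratins had the same sign. Whether position and direction are related was not tested. RefSeq's GRCz12tu annotation is not the build of the files and is used here for gene order only. By it, the chromosome 19 keratins of the count table read *krt1-19e*, *krt92*, *cyt1l*, *cyt1*, *krt17* and *krt91*. Before them lies *krt1-19d*, which the count table does not list, and 1 gene lies between *krt92* and *cyt1l*. In the mutants the log2 fold changes along the listed keratins were -2.45, 0.37, -0.39, -0.17, 0.41 and -1.13, so that falls and rises stood next to each other. On chromosome 11, *krt15* fell by 2.83 and the keratin gene next to it, *krt99*, rose by 1.11. On chromosome 22, *krt97* rose by 0.42 and its neighbour *krt96* fell by 0.86. The type II genes *krt5* and *krt8* and the type I gene *krt18* follow each other on chromosome 23 with 0.51, 0.03 and 0.31. *krt4* lies on chromosome 6, with 1 gene between it and *krt18b*, and both were lower (-0.15 and -1.19).

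**Figure D5:**
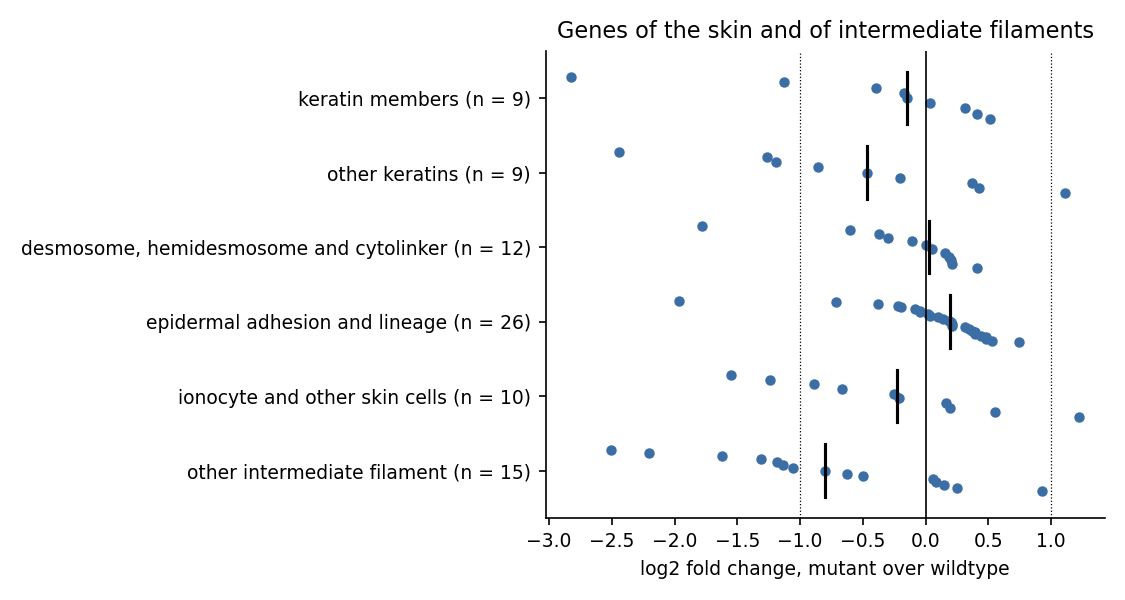
Log2 fold change of mutant over wildtype (horizontal axis) of each tested gene (points) in 6 groups of genes, with the group's median as a black line. Keratins spread from -2.83 to 1.11, and the epidermal adhesion and lineage genes lie mostly above 0.

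Other genes of the skin gave a setting for the keratins. Of 26 tested genes for epidermal adhesion and lineage, 15 were higher, 6 lower and 5 did not pass an adjusted p under 0.05, with a median log2 fold change of 0.19. Over all genes tested, 66.2% passed this limit, 32.6% higher and 33.6% lower, and 8.36% were called. Their summed level was 2690 to 2725 CPM in wildtype and 3258 to 3273 CPM in mutant libraries. Beside *tp63*, the regulator of basal keratinocytes, which rose by 0.14 on the log2 scale (edgeR adjusted p = 0.00026), the adhesion genes *epcam* (0.48) and *cdh1* (0.39) rose (edgeR adjusted p = 6.08e-17 and 5.59e-15). The called gene of this list was *frem1a*, which encodes a protein of the epidermal basement membrane and fell from 26.7 ± 0.685 to 6.82 ± 0.249 CPM (SD, n = 3 each). Among the genes that fell less than 2-fold were *frem2a* (-0.71) and *fras1* (-0.38) on the log2 scale (edgeR adjusted p = 5.53e-14 and 9.80e-12). All genes named from this list except *frem1a* were chosen after their values were seen. The largest part of the list's sum came from *anxa1c*, which went from 764 ± 6.6 to 1064 ± 8.84 CPM (SD, n = 3 each). *krt4*, *cyt1* and *cyt1l* thus fell while the summed level of the epidermal list rose, and *krt5*, *krt17* and *krt18* rose with it. The part of cell number in these changes was not tested.

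Keratin filaments are anchored at desmosomes, which join cells, and at hemidesmosomes, which fix basal cells to the basement membrane. Of 27 gene names listed for these junctions and their linkers, only 12 were found in the table, so the list covers them in part. Of these 12 tested genes, 5 were higher, 5 lower and 2 did not pass, with a median log2 fold change of 0.03. Over all genes tested, 66.2% passed and 8.36% were called, so the share called in this list was near that of all genes. The called gene was *col17a1a*, a hemidesmosomal collagen, which went from 1.52 to 0.45 CPM (log2 fold change -1.78, adjusted p = 1.84e-06 from edgeR). It had 22 to 43 counts in wildtype and 10 to 12 counts in mutant libraries. The integrin genes of the hemidesmosome, *itgb4* and *itga6b*, fell by 0.60 (edgeR adjusted p = 1.32e-11) and 0.30 (edgeR adjusted p = 8.44e-08) on the log2 scale. The plakin genes *evpla* and *ppl*, whose products link keratins to desmosomes, rose by 0.41 (edgeR adjusted p = 5.48e-13) and 0.20 (edgeR adjusted p = 4.10e-09). Directions were mixed among these genes too, since *pleca*, another plakin gene, fell by 0.11 (edgeR adjusted p = 0.00167) and the desmosomal plakophilin gene *pkp3a* by 0.38 (edgeR adjusted p = 1.34e-11) on the log2 scale. Genes of this list other than *col17a1a* were chosen after their values were seen, and whether hemidesmosomal and desmosomal genes differ was not tested.

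Ionocytes, the ion-transporting cells of the skin, gave 4 higher and 5 lower among 10 tested genes (median log2 fold change -0.23). *trpv6*, a calcium channel gene, and *ca15a*, a carbonic anhydrase gene, were called lower (-1.55 and -1.24), and *ceacam1* was called higher (1.23). Among all genes tested, 66.2% passed the limit on the adjusted p, 8.36% were called and 6.66% were called as lower. Intermediate filament genes other than keratins had a median of -0.80 over 15 tested genes, with 10 lower, 5 higher and 7 called, all lower. The 5 higher genes of this list, named after their values were seen, were *inaa*, *gfap* and the lamin genes *lmna*, *lmnb1* and *lmnb2*. The deepest falls there were in the neurofilament genes *nefmb* (-2.51) and *neflb* (-2.20) and in *prph*, which encodes peripherin (-1.62). Read support was thin for *neflb* and for *desmb*, another called gene, named after its value was seen. Each mutant library held 4 to 7 reads of *neflb*, against 20 to 26 per wildtype library. For *desmb* these numbers were 8 to 9 and 14 to 24. With so few mutant reads, both genes passed the filter for low expression through their wildtype libraries alone. They could thus be called only as lower, so their direction adds nothing to the count of called genes that were lower. *desma*, which encodes the desmin of muscle and was named after its value was seen, was also called lower, from 568 ± 7.92 to 258 ± 2.82 CPM (SD, n = 3 each). The summed level of the muscle markers given above was lower as well, and its part in the change of *desma* was not tested. The difference between keratins and other filament genes was not tested.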

How the data were processed

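The authors deposited estimated counts per gene and library, not normalized, and partly fractional. The submitters' processing notes list RSEM 1.2.28, FastQC and DESeq2, and the builds GRCz10 and danRer7, without roles. Beside the counts, the deposited table holds the authors' own comparison (adjusted p-values, log2 fold changes and fold ratios), which was not used.

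Rounded counts of all genes went through edgeR 4.0.16 (R 4.3.3): filterByExpr (12471 of 13466 genes kept), TMM (factors 0.978 to 1.02), and the quasi-likelihood test on genotype with Benjamini-Hochberg adjustment over all genes tested. The standard error is the log2 fold change divided by the square root of F. A gene is called when its adjusted p is under 0.05 and it differs more than 2-fold. Samples were grouped by their labels. Libraries of a genotype differed by more than counting noise (chi-square per degree of freedom 1.50 to 1.97), with a coefficient of variation of 1.85% beyond it. The fit was tested on simulated data. Alternatives were 3 other scalings, DESeq2 1.42.0, 2 other filters, unrounded values, a replicate block, glmTreat, summed entries and leaving out each library.

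Named from the skin, junction and filament lists were up to 3 called genes each, with the largest change and genotypes that did not overlap. Where none was called, the gene with the smallest adjusted p was to be named. No gene was named from the other marker lists. Of other keratins, all called genes and the 4 others with the highest mean CPM were named. Genes outside this rule are said to be so. The members and lists were chosen with earlier results of these data known. RefSeq names (GRCz12tu) matched 13240 of 13466 entries. Protein and promoter sequences were not used here.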

Additional observations from a re-analysis of the deposited data

How the results depend on the processing

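The count of 2 called members held under every alternative scaling, test, filter and rounding, with the replicate block and with each library left out, as did the 8 members past an adjusted p under 0.05 except with total count scaling, which gave 9 by adding *krt8* (log2 fold change 0.08). Of 129 repeats over single members, 127 kept both direction and side of the limit. The others were *krt8* with total counts and *krt91* summed with the entry that RefSeq names *krt92* (0.28 on the log2 scale, reversed because the other entry has far more reads). Total count scaling moved the summed level of the members to 41458 CPM in wildtype and 40515 CPM in mutants, which narrows their difference, and DESeq2's size factors left both within 1 SD. Same-numbered libraries did not deviate together (correlations 0.0647, 0.0431 and -0.0318), so the numbers were not taken as pairs. These numbers come from the sample titles, while the deposited columns of the mutants are named Mut2, Mut3 and Mut4. By column name, WT2 with Mut2 gave -0.105 and WT3 with Mut3 gave -0.0117. With the replicate number as a block, 8 members still passed, and 8155 genes against 8254. Over all genes, 1043 were called, against 502 with glmTreat, which tests for a change beyond 2-fold, and from 759 to 1261 under the other alternatives. *krt15*, with 20 to 29 counts in mutant libraries, is the member most limited by depth.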
